A study of Homo sapiens with 4 samples.

Results

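The Sm and LSm genes code for the small proteins that form rings around the RNAs of the spliceosome and related particles. They were taken by symbol, as every gene whose name starts with SNRP or with LSM and a digit and that had 20 or more counts summed over the libraries. This gave 24 genes out of 25 such symbols, in a table of 19948 genes of which 8499 reached the same minimum. The symbol left out was SNRPN, with 0 counts, and the member nearest the minimum was SNRPD3, with 30 counts. The name snRNP protein does not hold for all of them. LSM1 works in a cytoplasmic ring, and LSM12, LSM14A and LSM14B carry an LSm domain but are known for other work, LSM14A and LSM14B as proteins of cytoplasmic mRNP granules, and are described apart.

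All RNA came from HEK293T, a transformed human embryonic kidney line grown in complete medium with no inhibitor or genetic change named in the labels. Every pool shares a treatment with cycloheximide at 100 ug/mL for 10 min, a drug that stops elongating ribosomes where they stand. The lysate was spun through a gradient of 10 to 50% sucrose, and capped, polyadenylated RNA of the free, monosome, light polysome and heavy polysome pools was read directly as RNA on nanopores, with 1 library per pool. The libraries hold 355509, 1329334, 1499401 and 1564531 counts in that order, so the free library is the least precise, and the median member had 30 counts there against 254.5, 418.5 and 289 in the others. Summed over the libraries, VIM had 850 counts, the neurofilament gene NEFL 218, IGF2BP1 170, LIN28B 98 and NEFM 40, while INA and PAX2, also listed as markers of this line, had only 6 each. Of the markers of other cell types, PTPRC, ALB and CDH5 had 0 counts, COL1A1 2 and HBB 4. With a single library per pool nothing can be set against a spread between replicates, no p-value is given, and all intervals are 95% intervals of counting error only.

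Sm proteins B, D1, D2, D3, E, F and G close into a ring of 7 around the U1, U2, U4 and U5 RNAs in the cytoplasm, with help from the SMN complex, before the particle returns to the nucleus. LSm2 to LSm8 form the like ring on U6 RNA, and with LSm1 in place of LSm8 the ring is cytoplasmic and takes part in mRNA decapping. In the U7 particle, which cuts the 3′ ends of replication-dependent histone mRNAs, LSm10 and LSm11 stand in for D1 and D2. SNRPA and SNRPC are proteins of the U1 particle, and SNRPA1 and SNRPB2 of the U2 particle. On a polysome gradient an mRNA travels further the more ribosomes it carries, and the number it can carry is bounded by the length of its coding sequence.

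The study concerns TOP mRNAs, whose first bases after the cap are pyrimidines, so the annotated first bases of the Sm and LSm genes were read. RefSeq starts on GRCh38.p14 were found for 20 of the 24 members. A start was counted when its first base is C and the next 4 are each C or T on the strand of the gene. This held for 4 of the 20 members (20.0%), for 43 of 65 ribosomal protein genes (66.2%) and for 699 of 14989 genes of the table with a start (4.66%). The windows below run from 10 bases before the start to 10 bases into the RNA, 5′ to 3′, with the first 5 bases of the RNA in capitals. The first 4 are the members that matched, and LSM10 and SNRPD2 are shown because they were the members with the smallest heavy polysome share and the largest free share.
LSM2 (chr6:31806957-31806976, minus strand): cggcttcctcCTCCCctcta
LSM8 (chr7:118184154-118184173, plus strand): ctggcgcgccCTTTCagttc
LSM11 (chr5:157743702-157743721, plus strand): cggcttcgttCCTTCttccc
SNRPA (chr19:40751193-40751212, plus strand): ctcgagagttCTCTCcgcac
LSM10 (chr1:36397899-36397918, minus strand): gagcactgacGCACTctgcg
SNRPD2 (chr19:45692307-45692326, minus strand): acgtcagtaaCGCGTcccag
The 4 matching members did not lie together on the gradient. SNRPA and LSM11 were highest in the heavy polysome library, and LSM2 and LSM8 in the light polysome library. Only the letters at one annotated start were read, and the starts used in these cells were not analysed here.

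Relative to all tested genes the median member lay toward the lighter pools, while single members ranged from mostly monosome to mostly heavy polysome. For each gene the CPM (counts per 1000000 counts of the library) were summed over the libraries and the share of each pool taken. The median member had 10.0% in free, 24.1% in monosome, 33.7% in light polysome and 24.3% in heavy polysome, against 3.57%, 14.0%, 29.4% and 47.9% for the median of all tested genes. The heavy polysome library was the highest of the 4 for 9 of 24 members, the light polysome library for 10, the monosome library for 5 and the free library for 0. Among all 8499 tested genes the corresponding numbers were 5271, 2486, 631 and 111. These shares compare libraries of equal size, not the mass of RNA in each pool, which was not used here.

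**Figure D1:**
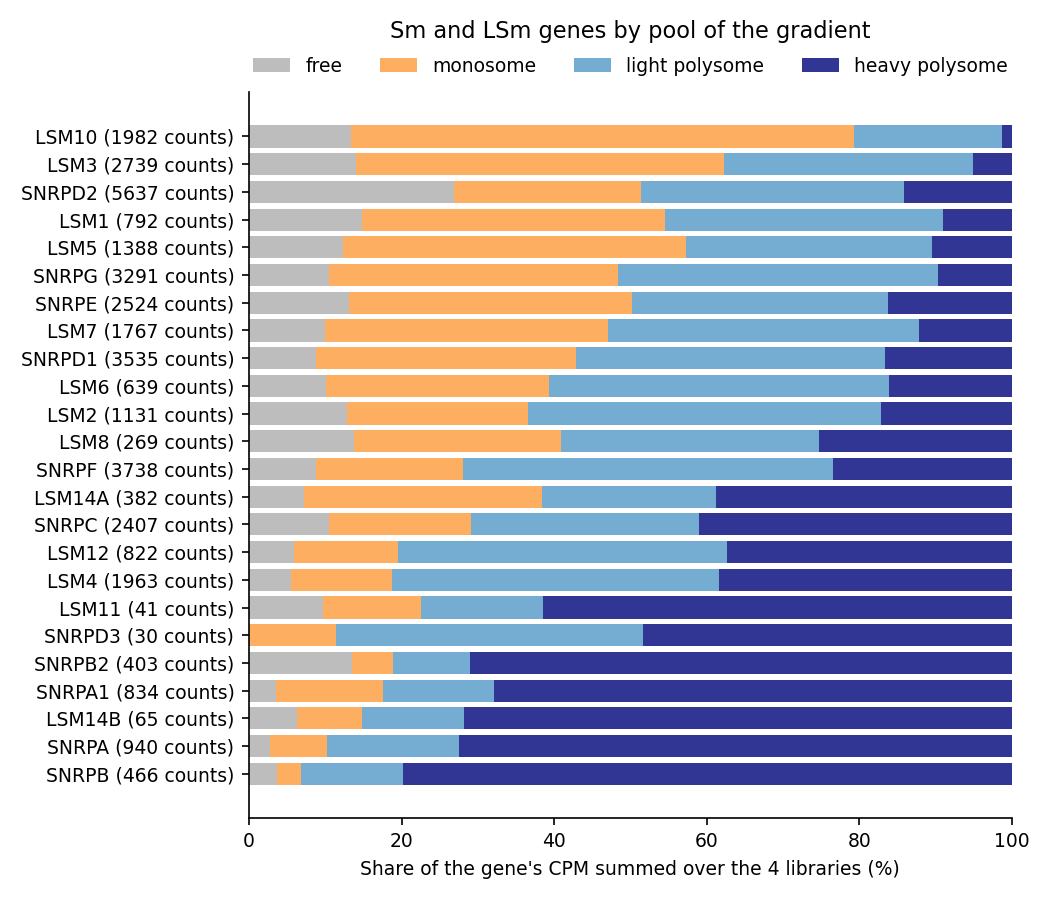
Each bar is 1 Sm or LSm gene, divided by the share (%) of its CPM summed over the 4 libraries that came from the free, monosome, light polysome and heavy polysome library, with its summed count beside the name. Genes run from LSM10 at the top, with 66% in the monosome library, to SNRPB at the bottom, with 79.9% in the heavy polysome library.

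A mean gradient position, which weights these shares by 0, 1, 2 and 3 from free to heavy polysome, was used to order the members. It ran from 1.09 for LSM10 to 2.69 for SNRPB, with a median of 1.79, against 2.24 for all tested genes and 1.20 for 74 tested ribosomal protein genes. After LSM10 came LSM3 (1.29), SNRPD2 (1.36), LSM1 (1.40) and LSM5 (1.41). At the other end SNRPB was preceded by SNRPA (2.59), LSM14B (2.51), SNRPA1 (2.47) and SNRPB2 (2.39). With CPM divided by edgeR's TMM factors the members' median became 1.27, so the position is read here as an order and not as a number of ribosomes.

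Together the 24 genes took 3755 CPM of the free library (Clopper-Pearson interval 3557 to 3962), 8833 of the monosome library (8675 to 8994), 10263 of the light polysome library (10102 to 10425) and 5957 of the heavy polysome library (5837 to 6079). Ribosomal protein genes took 64.9%, 54.7%, 31.5% and 19.1% of the same libraries. With those genes left out of the totals the members took 10694, 19496, 14993 and 7363 CPM, which moves the highest library from the light polysomes to the monosomes.

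The first comparison, heavy against light polysome, asks which members were found with many ribosomes and which with a few. This pair has the most counts and carries the firmest values. The ratio of a gene's shares in 2 libraries was taken on the log2 scale, after adding 0.5 to each count, and is given as a difference from the median tested gene, whose own share was 1.53-fold higher in the heavy library. A gene was called higher or lower if it lay 2-fold or more from the median gene and its counting interval excluded the median gene. By this rule 13 of the 24 members were lower, against 27.2% of all tested genes, 6 were higher, against 24.1%, and 5 were not called. The members' median was -1.35, while the quartiles of all tested genes lay at -1.19 and 1.06. As a plain ratio of shares the members' median was -0.73, with 12 lower and 6 higher, beside 0.62 for the median tested gene.

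**Figure D2:**
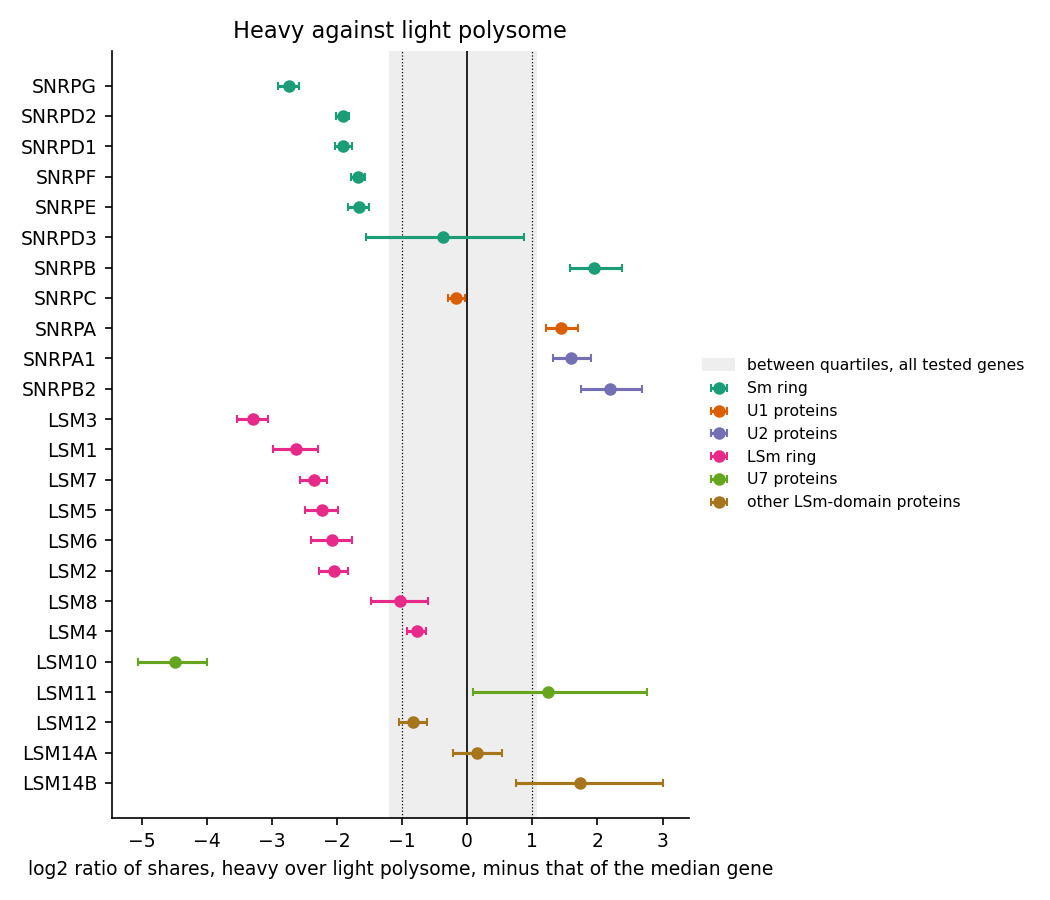
The log2 ratio of shares, heavy over light polysome, minus that of the median gene is plotted for each of the 24 genes, grouped and coloured by role. Points are values, bars their 95% counting intervals, the solid line the median gene, dotted lines the 2-fold limits and the grey band the range between the quartiles of all tested genes; LSM10 lies far to the left at -4.48, and SNRPB2 is highest at 2.19.

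Among the genes of the Sm ring 5 of 7 were lower in the heavy than in the light polysomes, against 27.2% of all tested genes. These 5 code for 76 to 119 residues. Of genes of up to 100 residues 94.9% were lower, and of those of over 100 and up to 150 residues 80.9%. SNRPG (chromosome 2, 70281362 to 70293771), which codes for the smallest Sm protein, had 262 CPM in free, 943 in monosome, 1046 in light and 240 in heavy polysome. Its heavy to light ratio lay at -2.74 (interval -2.91 to -2.58). SNRPE had 256, 721, 654 and 316 CPM, and SNRPF, its neighbour in the ring, 236, 523, 1314 and 632. They thus differed in the monosome and light polysome libraries, SNRPE being highest in monosomes and SNRPF in light polysomes, while their heavy to light values were level at -1.67 each. SNRPD1 had 231, 890, 1060 and 435 CPM and lay at -1.90 (-2.04 to -1.77).

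SNRPD2 (chromosome 19, 45687454 to 45692569) had the largest free share of any member. It had 1305 CPM in the free library, 1192 in monosome, 1679 in light and 684 in heavy polysome, so that 26.9% of its summed CPM was free, against 8.82% for its ring partner SNRPD1. In heavy against light polysome, however, SNRPD2 at -1.91 lay beside SNRPD1.

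SNRPB (chromosome 20, 2461634 to 2470853), which codes for the B and B′ proteins, was the exception within the ring. It had 11.3 CPM in free, 9.78 in monosome, 41.4 in light and 247 in heavy polysome, from 4, 13, 62 and 387 counts. Its heavy to light ratio of 1.95 (1.57 to 2.37) was higher than that of 90.2% of all tested genes. SNRPD3, with 0, 3, 12 and 15 counts, lay at -0.37 (-1.55 to 0.87) and was not called. The interval of its 0 in the free library reaches 10.4 CPM, and a floor of 3 counts there equals 8.44 CPM. In the GENCODE 29 annotation SNRPD3 shares 12% of its exon bases with GGT1 on the same strand and 12.6% with GUCD1 on the other, SNRPB shares 20.0% with the gene AL049650.1, and SNRPN shares 23.8% with SNURF. GGT1, AL049650.1 and SNURF have 0 counts in the table and GUCD1 has 290. The counting rule for reads over such overlaps is not stated in the labels, and their part in the counts of SNRPD3, SNRPB and SNRPN was not tested.

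Of the 4 members that belong to the U1 or U2 particle alone, SNRPA, SNRPA1 and SNRPB2 were higher in the heavy than in the light polysomes. SNRPA (chromosome 19, 40750637 to 40765389), the U1 protein that binds a stem-loop of U1 RNA, had 16.9, 47.4, 108 and 453 CPM from free to heavy polysome and lay at 1.45 (1.20 to 1.71). SNRPA1, a leucine-rich protein of U2, had 19.7, 79.0, 82.0 and 383 CPM and lay at 1.6 (1.32 to 1.90). SNRPB2, its RNA-binding partner, had 39.4, 15.8, 29.3 and 207 CPM and gave the highest heavy to light value of all members, 2.19 (1.74 to 2.69). All 3 were therefore highest in heavy polysomes, with 67.9% to 72.5% of their CPM there. SNRPB2 also had more CPM in the free than in the monosome or light library, although its free value rests on 14 counts.

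SNRPC, a zinc-finger protein of the same particle as SNRPA, was intermediate. It had 183, 326, 525 and 717 CPM, rising from pool to pool, and at -0.17 (-0.30 to -0.03) it lay close to the median gene.

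All 8 genes of the LSm ring lay below the median gene in heavy against light polysome, and 7 were called lower, against 27.2% of all tested genes. These 8 genes code for 80 to 139 residues. In their length classes 94.9% (up to 100 residues) and 80.9% (over 100 and up to 150 residues) of genes were lower. LSM3 (chromosome 3, 14178358 to 14201119) had 304, 1049, 709 and 111 CPM and lay lowest of them at -3.29 (-3.54 to -3.07). LSM5 had 132, 484, 347 and 113 CPM and LSM7 had 132, 493, 540 and 162. They lay at -2.23 (-2.49 to -1.99) and -2.35 (-2.56 to -2.15). LSM5, like LSM3, was highest in the monosomes, whereas LSM7 was close between monosome and light polysome.

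LSM2 had 110, 202, 395 and 147 CPM, and LSM6 had 47.8, 139, 211 and 76.7. Both were highest in the light polysomes, and their heavy to light ratios of -2.04 (-2.27 to -1.82) and -2.08 (-2.40 to -1.77) had overlapping intervals. LSM4 (chromosome 19, 18306230 to 18323274) was the LSm ring gene furthest toward the heavy end, with 75.9, 181, 585 and 523 CPM. At -0.78 (-0.92 to -0.64) it fell short of the 2-fold limit.

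LSm1 and LSm8 decide whether the ring works in decapping or on U6 RNA. LSM1 had 92.8, 248, 227 and 56.2 CPM and lay at -2.63 (-2.99 to -2.29), with only 9.0% of its CPM in the heavy polysome library. LSM8, from fewer counts, had 28.1, 55.7, 69.4 and 51.8 CPM and lay at -1.04 (-1.48 to -0.61), with 25.3% in the heavy polysome library. Its call was lost with TMM scaling, at -0.98, with DESeq2 size factors, at -0.97, as a plain ratio of shares, at -0.42, and with a minimum of 1 count (-0.92) or 100 counts (-0.82).

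The U7 proteins lay at opposite ends. LSM10 (chromosome 1, 36391238 to 36397892) had 214 CPM in free, 1058 in monosome, 311 in light and 21.1 in heavy polysome, from 76, 1407, 466 and 33 counts. Its heavy to light value of -4.48 (-5.05 to -3.99), 22.3-fold below the median gene, was higher than that of only 0.200% of all tested genes. LSM11 had 2.81, 3.76, 4.67 and 17.9 CPM from 1, 5, 7 and 28 counts. It was called higher at 1.25, but its interval of 0.09 to 2.76 is wide at this depth.

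Of the other LSm-domain genes, LSM12 had 33.8, 78.2, 247 and 214 CPM and lay at -0.83 (-1.04 to -0.61), short of the limit. LSM14A had 19.7, 85.8, 62.7 and 107 CPM, with a dip in the light polysomes between 2 higher pools, and lay at 0.15 (-0.22 to 0.53). LSM14B had 2.81, 3.76, 6.00 and 32.0 CPM and was called higher at 1.73 (0.76 to 3.00).

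Members that share a ring, a particle or a domain were set against each other in 8 pairs, as the ratio of their heavy to light ratios with exact conditional intervals widened to cover all 8 pairs together. LSM10 was 6.04-fold lower than SNRPD1, the protein it replaces (3.68 to 10.6), and LSM11 was 9.41-fold higher than SNRPD2, which it replaces (3.03 to 39.2). LSM1 was 3.01-fold lower than LSM8 (1.76 to 5.17). SNRPB was 4.97-fold higher than SNRPD3 (1.44 to 16.5), with which it forms a dimer before ring assembly. SNRPF was 2.09-fold higher than SNRPG (1.73 to 2.54) but not separable from SNRPE, with a ratio of 0.996 (0.827 to 1.20). SNRPA was 1.68-fold lower than its relative SNRPB2 (1.02 to 2.87), and LSM14B was 3.12-fold higher than LSM14A (1.11 to 10.9). The pairs were chosen by known biology with the values already known, and the intervals hold for these libraries only. They were not matched for protein length. LSM11 codes for 360 residues and SNRPD2 for 118, and SNRPB for 231 and SNRPD3 for 126, while LSM10 (123) and SNRPD1 (119) are close.

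The members called lower and those called higher in heavy against light polysome differed in the length of the encoded protein. The 13 lower members code for 76 to 133 residues and the 6 higher members for 225 to 385. All members run from 76 residues (SNRPG) to 463 (LSM14A), from GENCODE 29 coding sequences that were found for all 24 members and 99.0% of tested genes. Spearman's rho between residues and the heavy to light ratio was 0.75 across the 24 members and 0.31 across 8410 tested genes. Genes are not replicates, and all points share the same libraries, so no p is given. Within the 15 members of up to 150 residues rho was 0.17.

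**Figure D3:**
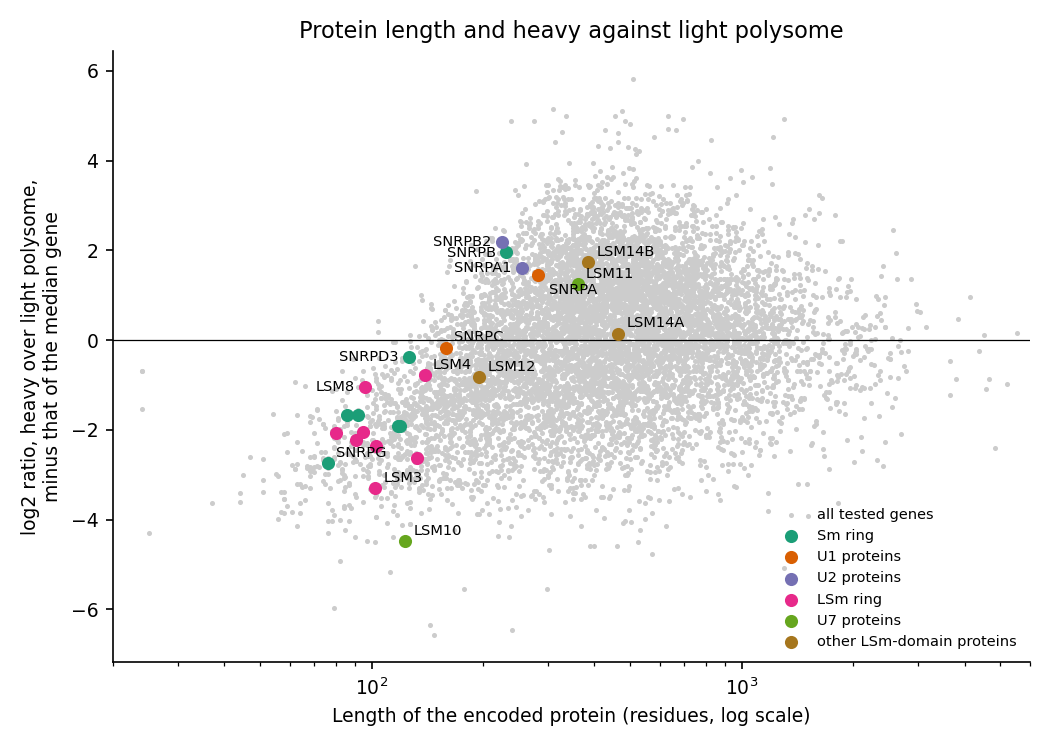
The log2 ratio, heavy over light polysome, minus that of the median gene (vertical) is plotted against protein length in residues (horizontal, log scale) for all tested genes with a coding length (grey) and for the 24 Sm and LSm genes, coloured by role. Members below 150 residues lie below 0 within the grey cloud of other short genes, LSM10 near its lower edge, and SNRPB, SNRPB2, SNRPA1 and SNRPA lie above 1.

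The members were also set beside genes of like length. All 7 members of up to 100 residues were lower in heavy than in light polysomes, as were 94.9% of 217 genes in that class, and 6 of the 7 lay above the class median of -2.64, LSM8 higher than 95.4% of the class. In the class of over 100 and up to 150 residues 6 of 8 members were lower, against 80.9% of 481 genes. The members in this class were spread widely. LSM10 was above only 4 of the 481 genes and LSM3 above 7.48%, while SNRPD1 and SNRPD2 were near the middle at 46.4% and 46.2%. LSM4 lay above 85.4% and SNRPD3, with its few counts, above 92.9%.

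In the class of over 150 and up to 300 residues 4 of 6 members were higher, against 14.2% of 1916 genes. SNRPB2 lay above 96.7% of this class, SNRPB above 95.5%, SNRPA1 above 92.2% and SNRPA above 90.7%. SNRPC lay above 58.7% and LSM12 above 41.2%. The members of this class had a median of 1.52 against -0.50 for the class. Of the 3 members over 300 residues, LSM11 and LSM14B were higher, against 30.2% of 5796 genes.

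Light polysome against monosome asks which members carried a few ribosomes rather than 1. Here 6 of 24 members were lower, against 15.2% of all tested genes, and 1 was higher, against 14.2%. Among genes of up to 100 residues 2 of 7 members were lower, against 31.8% of that class. From there up to 150 residues 3 of 8 were lower, against 22.9%, and over 300 residues 1 of 3, against 14.6%. The median gene had a 1.94-fold higher share in the light polysomes, and the members' median was -0.55 relative to it. LSM10 was again lowest at -2.72 (-2.88 to -2.57), followed by LSM3 at -1.52 (-1.64 to -1.40), LSM5 at -1.44 (-1.61 to -1.27), LSM14A at -1.40 (-1.82 to -1.0), SNRPE at -1.10 (-1.23 to -0.97) and LSM1 at -1.08 (-1.30 to -0.86). The calls of SNRPE and LSM1 were lost with no minimum beyond 1 count, at -0.93 and -0.92. SNRPB was the member called higher, at 1.08 (0.25 to 2.11), from 13 monosome counts, and at 0.98 with a minimum of 100 counts it was no longer called. SNRPF at 0.37 (0.25 to 0.50) and LSM4 at 0.74 (0.53 to 0.95) lay above the median gene but within 2-fold of it. This direction depends on the reference: as a plain ratio of shares the members' median was 0.40 toward the light polysomes, with 5 genes higher and 1 lower. The median tested gene lay at 0.95 on that scale.

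Monosome against free asks which members sat under a ribosome at all. Relative to the median gene 1 of 24 members was higher, against 4.54% of all tested genes, and 2 were lower, against 4.18%. LSM10 was higher at 1.03 (0.71 to 1.39), but at 0.91 with a minimum of 100 counts it was no longer called. SNRPD2, with 464 free and 1585 monosome counts, was lower at -1.40 (-1.55 to -1.25), and SNRPB2, with 14 and 21, was lower at -2.60 (-3.63 to -1.50). The other members lay between -1.59 (SNRPB) and 0.76 (LSM14A). These counts rest on the thin free library. With 1 rather than 0.5 added to each count, which moves the median gene, 7 members were higher and 1 lower, and SNRPD2, at -0.93, was no longer called. As a plain ratio of shares 15 members were higher and 1 lower, with a median of 1.31 toward the monosomes, beside 1.27 for the median tested gene. With genes without a count at a floor of 3 the numbers were 11 and 1. The shares of all tested genes called under these alternatives are not given here.

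Heavy polysome against free is the widest span of the gradient. In it 13 of 24 members were lower, against 13.1% of all tested genes, and 3 were higher, against 6.89%. By protein length, 7 of 7 members of up to 100 residues were lower, against 73.3% of that class. Of the 8 members of over 100 and up to 150 residues 6 were lower, against 57.2%. The 3 higher members were among the 6 of over 150 and up to 300 residues, where 7.25% of genes were higher. The median gene had a 7.50-fold higher share in the heavy polysomes and the members' median was -1.75 relative to it. This comparison shares its libraries with those above and is not independent of them. LSM10 lay at -6.24 (-6.88 to -5.64), LSM3 at -4.37 (-4.72 to -4.00) and SNRPD2 at -3.84 (-4.00 to -3.68). The members called higher were SNRPA at 1.73 (0.71 to 3.29), SNRPB at 1.38 (0.18 to 3.43) and SNRPA1 at 1.28 (0.32 to 2.70), with 6, 4 and 7 counts in the free library, and SNRPB was no longer called with a minimum of 100 counts (1.13). SNRPF was lower at -1.49 (-1.81 to -1.15), but not with a pseudocount of 1 (-0.92). With genes without a count at a floor of 3, LSM8, at -0.91, SNRPD1, at -0.82, and SNRPF, at -0.32, were no longer called. LSM4 was called higher at that floor, at 1.03. A minimum of 1 count also removed the calls of LSM8 (-1.10) and SNRPF (-0.50). SNRPB2, the highest member in heavy against light, lay at -0.56 (-1.28 to 0.38) here, from 14 free and 324 heavy counts. As plain shares 11 members were called higher in the heavy polysomes and 2 lower. Their median was 1.16, beside 2.91 for the median tested gene, so the lower position of the members is one relative to other mRNAs.

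Genes that assemble the Sm ring, or whose proteins work beside the LSm1 and U7 rings, had higher medians in heavy against light polysome than the Sm and LSm genes, a difference that was not tested. The lists were not matched for protein length. In this comparison tested genes of up to 100 residues had a median of -2.64 and those of over 300 residues 0.37. Of 17 tested genes for snRNP assembly 7 were higher and 1 lower, with a median of 0.89, beside 24.1% higher and 27.2% lower among all tested genes. WDR77, a subunit of the methylosome that modifies Sm proteins, had 219 light and 1191 heavy counts and lay at 1.76 (1.56 to 1.98). STRAP, which binds the SMN complex, lay at 1.32 (1.10 to 1.56) and the nuclear cap-binding subunit NCBP1 at 2.10 (0.96 to 3.72). GEMIN7, an SMN complex protein of 131 residues, was the one lower at -1.94 (-2.40 to -1.51). The near-identical copies SMN1 and SMN2, named here after their values were seen, had the same count in every library (19, 95, 170 and 353), so this list holds that value at 2 places. The labels do not state whether reads with several alignments were counted once or more. That matters for members with copies: GENCODE 29 names 20 pseudogenes after SNRPG, 18 after SNRPC and 9 after SNRPE, and their part in the counts was not tested.

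**Figure D4:**
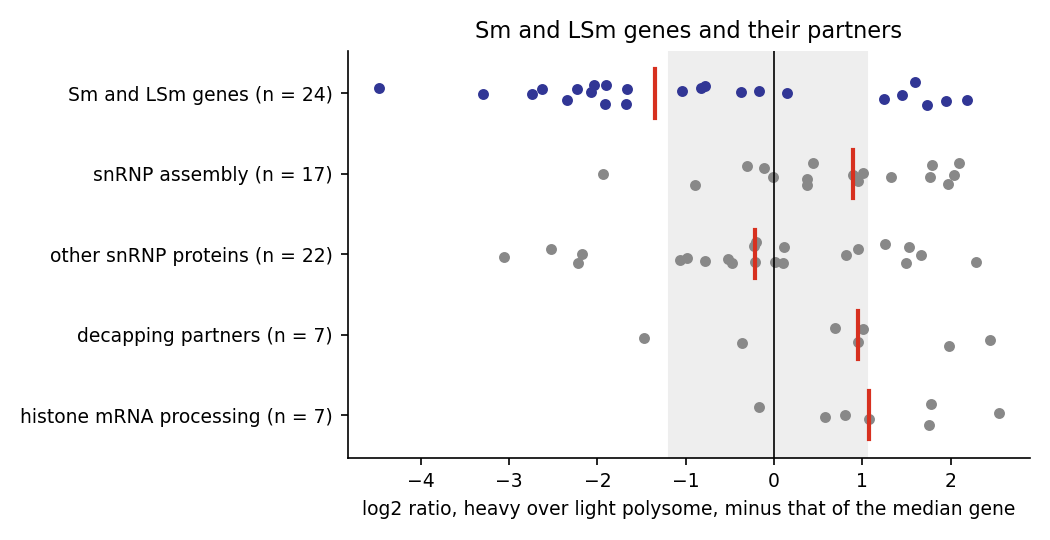
The log2 ratio, heavy over light polysome, minus that of the median gene is plotted for each tested Sm or LSm gene (blue) and each tested gene of 4 partner lists (grey), with the median of each list as a red line and the range between the quartiles of all tested genes as a grey band. Vertical scatter within a list carries no value; the Sm and LSm median lies at -1.35 and that of the snRNP assembly genes at 0.89.

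Other proteins of the spliceosomal particles were also listed. Of 22 tested genes 5 were higher and 4 lower, with a median of -0.21, beside 24.1% higher and 27.2% lower among all tested genes, so most lay within 2-fold of the median gene or were not separable from it. SNU13, a protein of 128 residues that binds U4 RNA, had 1638 light and 582 heavy counts and lay at -2.17 (-2.31 to -2.03), TXNL4A, a U5 protein of 142 residues, at -2.22 (-2.41 to -2.03), and SNRNP25, a minor spliceosome protein of 132 residues, at -3.06 (-3.30 to -2.82). PRPF4, a U4/U6 protein of 522 residues, was highest at 2.28 (1.65 to 3.04).

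Of 7 tested decapping partners of the LSm1 ring 3 were higher and 1 lower, with a median of 0.96, beside 24.1% higher and 27.2% lower among all tested genes. The helicase DDX6 lay at 1.98 (1.18 to 3.00), the decapping cofactor DCP1A at 2.44 (0.96 to 5.00) and the scaffold EDC4 at -1.48 (-2.87 to -0.24), from 134, 34 and 29 counts in all, while EDC3 lay at 0.69 (0.20 to 1.23). Of 7 tested genes for histone mRNA processing 4 were higher and 0 lower, with a median of 1.07, against the same shares of all tested genes. CPSF3, the nuclease that cuts these mRNAs, lay at 2.55 (1.71 to 3.65), the stem-loop binding protein SLBP at 0.81 (0.54 to 1.08), the scaffold SYMPK at 0.58 (0.08 to 1.12) and the U7-associated ZNF473 at -0.17 (-1.49 to 1.26). LSM10, with which they work, thus stood on the other side of the median gene from 6 of these 7. These 7 genes code for 270 to 1274 residues, however, and LSM10 for 123. In the length class of LSM10, 80.9% of genes were lower in heavy than in light polysomes.

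The Sm and LSm genes were also set beside 2 other groups in heavy against light polysome, in which 24.1% of all tested genes were higher and 27.2% lower. Of 43 hnRNP, SR and SF3 genes, whose proteins also act in splicing, 28 were higher and 3 lower, with a median of 1.59 and a median position of 2.47. Of 73 mitochondrial ribosomal protein genes 16 were higher and 21 lower, with a median of -0.02 and a median position of 2.09. The Sm and LSm genes lay below both, at -1.35 and 1.79. These differences were not tested, and the groups were not matched for protein length.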

How the data were processed

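The series holds 1 library for each of 4 pools of a polysome gradient. The table the authors deposited gives whole, unscaled counts per gene symbol. The submitters' processing notes list minimap2 2.15, Subread 1.6.2, its program featureCounts, and the hg38 build. The annotation, strand use and treatment of multiply aligned reads: not given in the sources used here. Direct RNA reads are not amplified, and intervals and floors cover counting error only. All columns were used.

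Members, gene lists and pairs were chosen with earlier results of these data known. All symbols fitting the rule are named; for each partner list, the 2 most counted genes and the highest and lowest in heavy against light polysome. Genes with 20 or more summed counts were tested across the whole table. Ratios of shares used a pseudocount of 0.5, the median tested gene as reference and exact Clopper-Pearson 95% intervals, and the procedure was tested on simulated data. With 1 library per pool edgeR's quasi-likelihood test could not be fitted, and no p-value was computed. The alternatives were other minimum counts, a pseudocount of 1, plain shares, edgeR 4.0.16 (TMM) and DESeq2 1.42.0 scaling, the fold alone, a floor of 3 counts, and totals without ribosomal protein genes. Coordinates and coding lengths came from GENCODE 29, which may differ from the annotation the authors counted on, and start windows from RefSeq (GRCh38.p14). Python 3.11.15 with scipy 1.17.1 and R 4.3.3 were used.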

Additional observations from a re-analysis of the deposited data

How the results depend on the processing

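In heavy against light polysome the counts of 13 lower and 6 higher members moved by no more than 1.5 times under the alternatives run, and the median (-1.35) kept its sign and moved by more than 1.5-fold, a limit set after the values were seen, only as plain shares, to -0.73. LSM8 lost its call there with TMM, DESeq2 size factors, plain shares and a minimum of 1 or 100 counts. The comparisons with the free library were less stable. In monosome against free the count of higher members (1 as reported) was 0 with 100 or more counts, 8 with no minimum beyond 1 count, 7 with a pseudocount of 1, 15 as plain shares, 2 with TMM and 11 with genes without a count at a floor of 3; the lower count (2) was 1 with no minimum, with a pseudocount of 1, as plain shares and at the floor, and 5 with the fold alone. Its median (0.04) became 0.73 with no minimum, 1.31 as plain shares and 0.94 at the floor. In light polysome against monosome the higher count (1) was 0 with 100 or more counts and 5 as plain shares, the lower count (6) became 1 as plain shares, and the median turned from -0.55 to 0.40. In heavy polysome against free the median (-1.75) was -2.34 with 100 or more counts, -0.76 with no minimum and -0.87 at the floor. Plain shares turned it to 1.16, with 11 higher and 2 lower. Of the members called lower they turned LSM2 (0.41), LSM6 (0.65), LSM7 (0.28), LSM8 (0.82), SNRPD1 (0.91), SNRPE (0.30) and SNRPF (1.41). All members below the median gene but not called turned as well, SNRPC for example to 1.96. Plain shares differ from the reported values only by the median gene's own ratio. The shares of all tested genes called under the alternatives are not given here. Without ribosomal protein genes in the totals the summed CPM were 10694, 19496, 14993 and 7363 from free to heavy polysome. The median position became 1.27 with TMM factors. No paired analysis was possible because each pool has 1 library. Depth limits LSM11, LSM14B and SNRPD3 most, with 41, 65 and 30 counts in all.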
